A study of Homo sapiens with 2 samples.

Results

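Homeobox genes encode transcription factors that bind DNA through a homeodomain, and many of them lie beside long non-coding RNA genes transcribed from the opposite strand. Here, 4 such loci were examined in LNCaP cells. The homeobox genes are DLX5, DLX6, EMX2, OTX2 and PITX1, and the antisense genes are DLX6-AS1, EMX2OS, OTX2-AS1 and PITX1-AS1. These 9 genes were chosen by symbol, and all 9 are among the 64081 genes of the count table. LNCaP is an androgen-sensitive line from a metastasis of a prostate carcinoma. Both of the 2 biological replicates had grown for 48 h without androgen (10% FBS, charcoal stripped, with 10 mM HEPES), and their poly(A)+ RNA gave strand-oriented read pairs of 75 bases. A single deposited column holds the pairs of both replicates together. No value below therefore has a replicate error, no test between conditions could be made, and the intervals, all at 95%, account for counting error alone.

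DLX5 and DLX6 pattern the jaws, the limbs and the inhibitory neurons of the forebrain. EMX2 patterns the cerebral cortex and the urogenital tract, OTX2 the forebrain and the retina, and PITX1 the hindlimb and the pituitary. Antisense RNAs of such loci can start within or beside the homeobox gene, and the mouse counterpart of DLX6-AS1 is known for acting at enhancers of the Dlx genes. An antisense count can be read only with the map of the exons on both strands, because exons of other genes may lie opposite the same RNA far from its start.

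According to the methods of the study, TopHat was run on these libraries with library type fr-secondstrand, meaning that read 1 is in the sense of its RNA. For paired-end strand-specific data the methods give the reverse setting of htseq-count, which lists a pair for genes antisense to read 1. With these settings combined, pairs from the minus strand are listed under genes of the plus strand and the reverse. In total, 9495309 pairs were counted on genes, 6.39% of the uniquely placed pairs, and 93.5% of those pairs fell on no feature. Of 12 genes that every cell uses, 4 had fewer than 10 counts, with 0 for HPRT1, 4 for ACTB and 14 for GAPDH. A gene that every cell uses was thus listed at 0. Of 10 markers of prostate luminal cells, 9 had at least 10 counts, with 18 for KLK3 and 8 for HOXB13, the only one of the 10 below that minimum. KRT8, with 6947, and KRT18, with 595, were the highest of the 10, and 525 exonic nt of each are opposite exons of the other. At least 10 counts were also listed for 2 of 4 fibroblast markers, 1 of 3 neural markers and not for the leukocyte marker PTPRC, which had 1. All genes of these lists are protein-coding, and 44.2% of all protein-coding genes had at least 10 counts. With the settings combined as above, these pairs come from the strand opposite each marker, so the markers do not test the label of the cells.

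Among the 9 genes, PITX1-AS1 stood apart, with 3298 pairs (exact Poisson interval 3186 to 3413), 98.7% of all pairs listed for the group. Each of the other 8 had 18 or fewer. At least 10 counts were listed for PITX1 and for the antisense genes OTX2-AS1 and PITX1-AS1, 3 of 9, beside 24.3% of all genes listed. By class, this was 1 of the 5 homeobox genes, beside 44.2% of all protein-coding genes, and 2 of the 4 antisense genes, beside 28.4% of all lncRNA genes. A count of 0 was listed for DLX5 and OTX2, as for 26.3% of protein-coding genes, and for EMX2OS, as for 50.6% of lncRNA genes. With the strand settings above, each of these counts is of pairs from the strand opposite the gene, and not a measure of its RNA. For any RNA that gave the pairs, fewer cells with it and less of it per cell give the same bulk count. They cannot be told apart here.

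**Figure D1:**
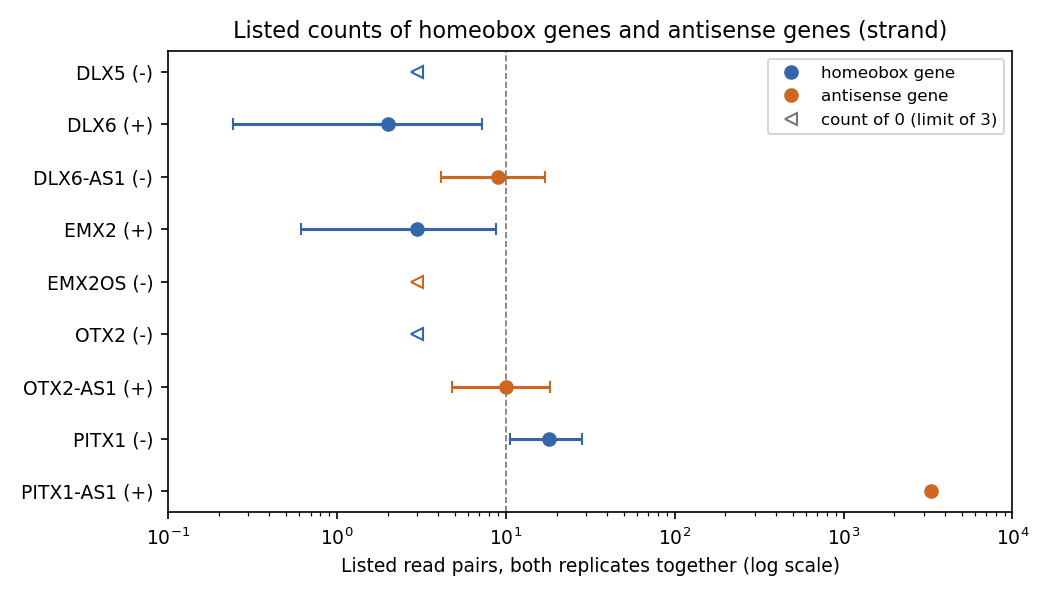
Listed read pairs of the 9 genes on a log scale, both replicates together, with exact 95% Poisson intervals. Blue marks homeobox genes and orange antisense genes, signs after the names give the annotated strand, open triangles at 3 mark a count of 0, and the dashed line is at 10 counts. PITX1-AS1 lies at 3298, and the other 8 genes at 18 or below.

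The sequences that frame this count are 3 stretches of PITX1-AS1 on chromosome 5 of GRCh37, the build also called hg19, written 5′ to 3′ on the plus strand. The first is its first exon (chr5:134368970-134369230, 261 bases), in which capitals mark the 99 bases shared by the 3 transcripts that start at the PITX1 end. It lies in the PITX1 gene but on no exon of PITX1. The other 2 are parts of later exons within MACROH2A1, which is on the minus strand and encodes macroH2A1, a histone variant known from repressed chromatin such as the inactive X chromosome. In these (chr5:134686386-134686612, a whole exon of 227 bases, and chr5:134678900-134679174, 275 bases of an exon of 1531 bases), capitals mark the 91 and the 175 bases that are opposite coding sequence of MACROH2A1. The exon of 1531 bases and the first exon at its full length of 261 bases belong to a transcript newer than the genes of the count table.
First exon: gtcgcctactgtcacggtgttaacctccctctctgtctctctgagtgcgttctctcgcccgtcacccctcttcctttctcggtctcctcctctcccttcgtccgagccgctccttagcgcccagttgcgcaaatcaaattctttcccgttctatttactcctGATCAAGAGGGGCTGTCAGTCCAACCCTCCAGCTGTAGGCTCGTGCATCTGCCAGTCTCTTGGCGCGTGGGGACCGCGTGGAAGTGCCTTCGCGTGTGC
Exon with 91 coding bases opposite: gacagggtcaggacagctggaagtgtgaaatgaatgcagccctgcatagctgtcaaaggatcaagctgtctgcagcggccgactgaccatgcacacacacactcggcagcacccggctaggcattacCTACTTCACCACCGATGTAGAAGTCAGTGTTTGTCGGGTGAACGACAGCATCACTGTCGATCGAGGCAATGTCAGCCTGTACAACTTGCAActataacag
Exon with 175 coding bases opposite: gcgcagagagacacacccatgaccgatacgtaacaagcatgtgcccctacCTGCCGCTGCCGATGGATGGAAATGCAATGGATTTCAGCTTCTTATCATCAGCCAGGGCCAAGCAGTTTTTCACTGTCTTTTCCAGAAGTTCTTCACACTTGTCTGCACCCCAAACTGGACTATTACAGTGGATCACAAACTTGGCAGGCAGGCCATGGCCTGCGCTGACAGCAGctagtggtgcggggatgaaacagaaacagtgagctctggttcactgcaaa
Read on the minus strand, both stretches in capitals of the later exons follow an AG and precede a GT, the usual bases at the ends of introns, as exons of MACROH2A1 do. They are thus exons of a spliced mRNA on one strand and parts of longer lncRNA exons on the other.

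PITX1 (ENSG00000069011) lies on the minus strand of chromosome 5, from 134363424 to 134370503, and PITX1-AS1 (ENSG00000224186) on the plus strand, from 134368970 to 134693909. Their starts are 1533 nt apart and the genes overlap over 1534 nt, yet they share 0 exonic nt, and the nearest exons are 144 nt apart. These distances, but not the absence of shared exonic nt, rest on the newer transcript. In LNCaP, 18 pairs were listed for PITX1 (exact Poisson interval 10.7 to 28.5), and the antisense gene held 99.5% of the 3316 pairs of the locus (exact binomial interval 99.1% to 99.7%). Per kb of exons, the listed level was 496 pairs for PITX1-AS1 and 5.23 pairs for PITX1, a ratio of 94.8. The 6650 exonic nt of PITX1-AS1 used here include the newer transcript, and older transcripts hold 4609 nt. The antisense share was 98.96% per kb of all exons and 99.27% per kb of older transcripts. The count of PITX1-AS1 ranked 101 among 12805 lncRNA genes, and that of PITX1 was at percentile 65.3 of protein-coding genes. The difference within the locus is thus far wider than counting error.

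Exons at the far end of PITX1-AS1 met another gene. MACROH2A1 (ENSG00000113648) runs from 134670071 to 134735604 on the minus strand and lies 299.6 kb beyond PITX1. Of the 19 distinct annotated exons of PITX1-AS1, 0 lie on exons of PITX1, 7 lie within MACROH2A1 and 4 share nucleotides with its exons. In all, 4706 of the 6650 exonic nt of PITX1-AS1 (70.8%) were opposite exons of MACROH2A1, and 75.4% lay within that gene. The largest of these exons, from 134690739 to 134693909 (3171 nt), is covered on the other strand by an exon of a MACROH2A1 transcript that codes for no protein. Against protein-coding transcripts of MACROH2A1 alone, the shared length was 266 nt, all of it coding, namely the capitals in the later exons printed above. Of these, 175 nt lie in the exon of the newer transcript and 91 nt in an exon of an older one. With the strand settings above, the pairs listed for PITX1-AS1 come from the strand of both MACROH2A1 and PITX1, and those listed for PITX1 from the strand of PITX1-AS1. The count table has no positions, so the exons that received the 3298 pairs are not known and the part of either gene in this count was not tested.

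**Figure D2:**
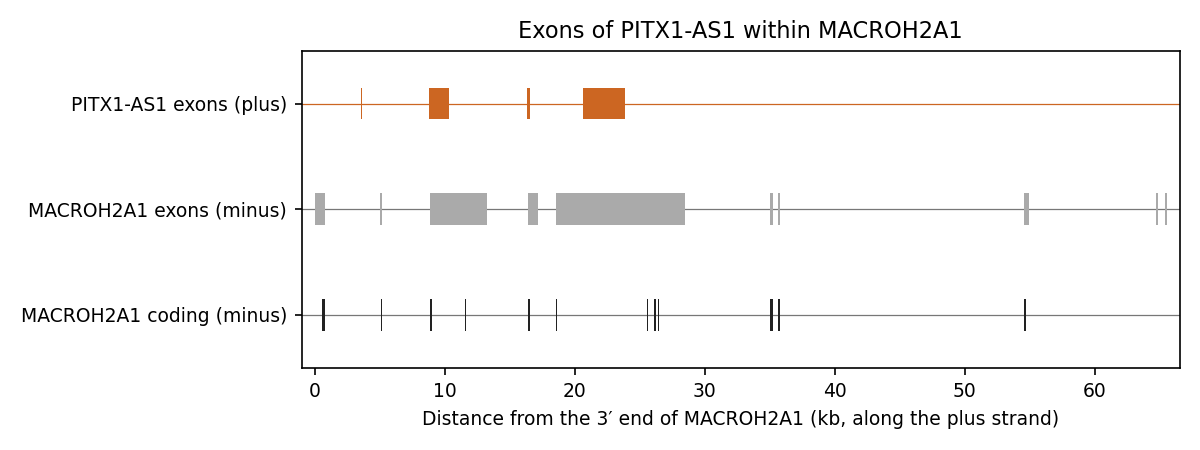
Exons of PITX1-AS1 on the plus strand (orange), exons of MACROH2A1 on the minus strand (grey, all transcripts) and coding parts of MACROH2A1 (black), by distance in kb from the 3′ end of MACROH2A1. The wide PITX1-AS1 exon near 21 to 24 kb is covered by a grey exon, and 2 other orange exons reach coding parts.

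MACROH2A1 itself had 1529 listed pairs (exact Poisson interval 1453 to 1608), or 89.9 pairs per kb of exons, at percentile 98.8 of protein-coding genes. Under the same settings, these pairs come from the plus strand, that of PITX1-AS1. Exons of PITX1-AS1 are opposite 27.7% of the exonic nt of MACROH2A1. Of the pairs listed for PITX1-AS1 and MACROH2A1 together, 68.3% were listed for PITX1-AS1 (exact binomial interval 67.0% to 69.6%), a ratio of counts of 2.16. These are totals over whole genes, and 12 of the 19 exons of PITX1-AS1 lie outside MACROH2A1, so the pairs cannot be placed at either end of PITX1-AS1.

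The DLX locus lies on chromosome 7. DLX6 (ENSG00000006377) is on the plus strand from 96634865 to 96640352, DLX6-AS1 (ENSG00000231764) spans it on the minus strand from 96584453 to 96643400, and DLX5 (ENSG00000105880) follows from 96649708 to 96654262, also on the minus strand. DLX6-AS1 is therefore antisense to DLX6 and on the same strand as DLX5, 6307 nt away from it. The listed counts were 9 pairs for DLX6-AS1 (exact Poisson interval 4.12 to 17.1), 2 pairs for DLX6 (0.242 to 7.23) and 0 pairs for DLX5. A count of 0 was given a limit of 3 counts, here 0.316 CPM, which is a one-sided limit below the upper end of the exact Poisson interval, 3.69 counts. DLX6-AS1 held 81.8% of the 11 pairs of DLX6-AS1 and DLX6, and the exact binomial interval, 48.2% to 97.7%, includes 50%. With the strand settings above, the 9 pairs listed for DLX6-AS1 come from the plus strand, that of DLX6. They were listed on exons of DLX6-AS1, of which 4.11% of the length is opposite exons of DLX6. The same 81.8% would thus be a share of the plus strand and need not be a share of DLX6 RNA. Per kb of exons, a scale on which the 18450 exonic nt of DLX6-AS1 weigh against its count, the level was 0.488 pairs for DLX6-AS1 and 0.581 pairs for DLX6. No difference between the strands of DLX6 was detectable from 11 pairs. The shared exonic length of 759 nt lies in the last exon of DLX6 and comes from a single transcript of DLX6-AS1 that is newer than the genes of the count table. Between DLX6-AS1 and DLX5, 9 of 9 pairs were listed for DLX6-AS1 (66.4% to 100%), whose exons are also longer than the 1744 nt of DLX5. Both genes are on the minus strand, so these values likewise count pairs from the plus strand, and the limit for DLX5 is one on listed pairs, not on its RNA.

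**Figure D3:**
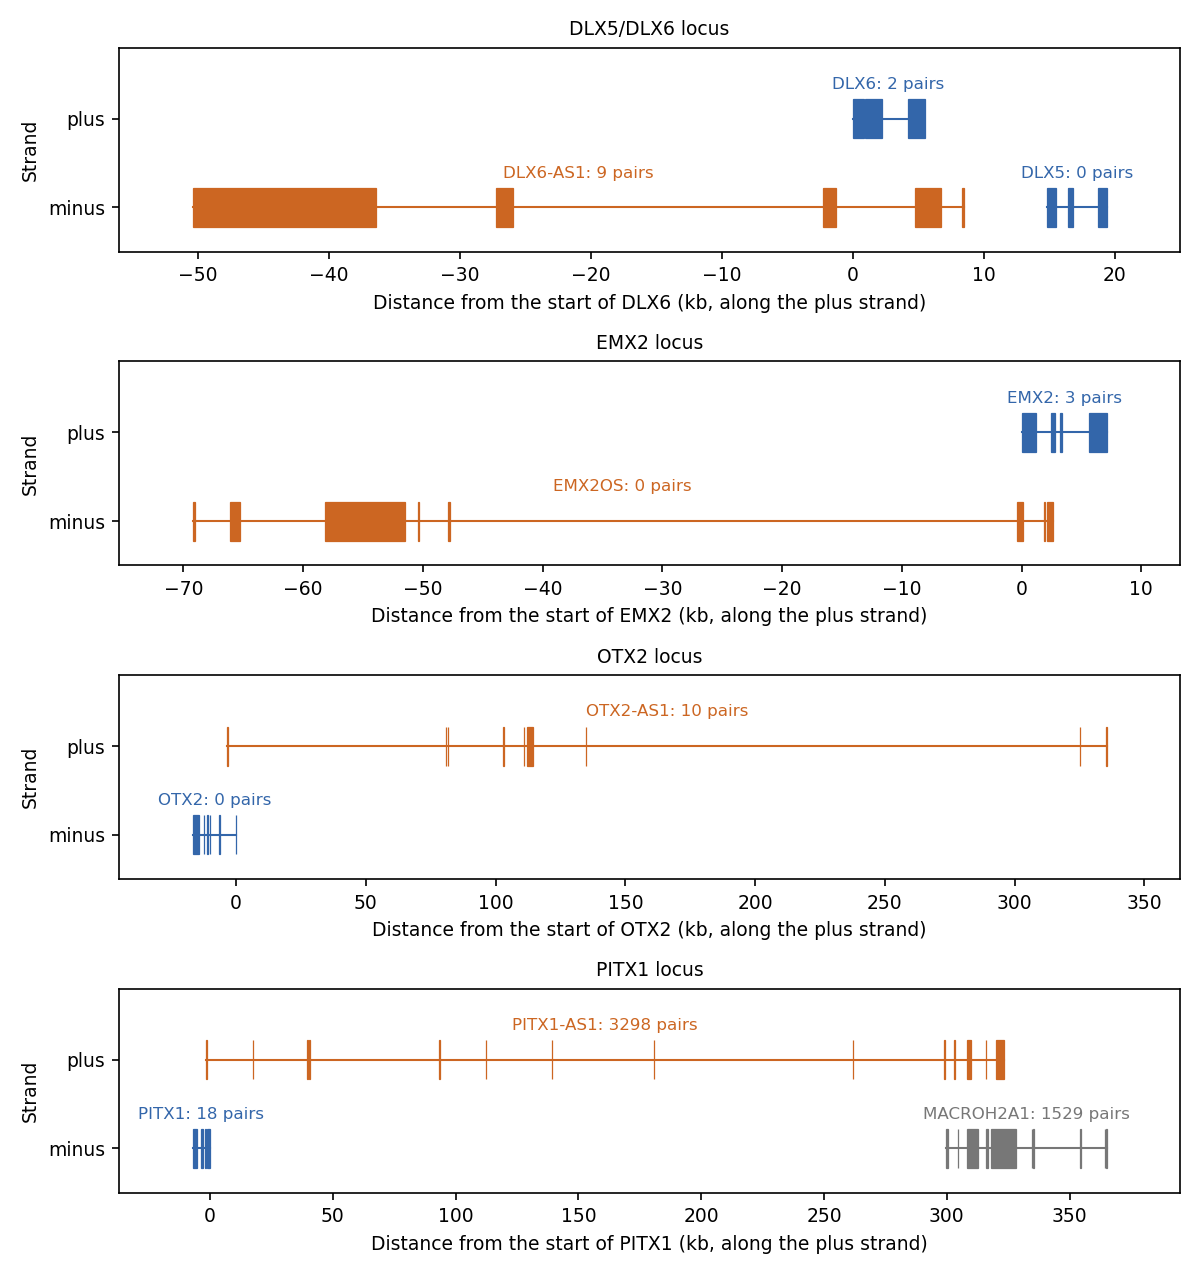
Exons (boxes, union of all annotated transcripts) of the homeobox genes (blue), their antisense genes (orange) and MACROH2A1 (grey) by strand, against the distance in kb from the start of the homeobox gene (DLX6 in the first panel), with listed pairs beside each name. EMX2OS and DLX6-AS1 share exonic positions with their partner, while OTX2-AS1 and PITX1-AS1 share none with theirs.

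At the EMX2 locus on chromosome 10, EMX2 (ENSG00000170370, plus strand, 119301956 to 119309057) had 3 pairs (exact Poisson interval 0.619 to 8.77), and EMX2OS (ENSG00000229847, minus strand, 119232726 to 119304579) had 0 pairs over 8918 exonic nt. The antisense share was 0% of 3 pairs, with an exact binomial interval from 0% to 70.8%, so neither strand could be called higher. This was the locus with the most regular exon sharing: 348 nt, 10.7% of the exonic length of EMX2, were exonic on both strands, and the same 348 nt were shared in older transcripts alone. The larger shared stretch (chr10:119304377-119304579, 203 bases, plus strand) is shown because reads from either strand of it would count on an exon. It lies in an exon of a non-coding EMX2 transcript and in the first exon of an EMX2OS transcript, all of it in capitals.
Shared by EMX2 and EMX2OS: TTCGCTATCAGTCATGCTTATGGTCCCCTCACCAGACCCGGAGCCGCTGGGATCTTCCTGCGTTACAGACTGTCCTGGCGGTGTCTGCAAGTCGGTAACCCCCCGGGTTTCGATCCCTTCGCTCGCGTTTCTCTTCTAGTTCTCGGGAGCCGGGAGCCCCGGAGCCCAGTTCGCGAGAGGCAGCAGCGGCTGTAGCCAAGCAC
Its GC content is 62.1% and it holds 17 CpG dinucleotides. The 3 pairs listed for EMX2 come, with the strand settings above, from the strand of EMX2OS. A further 258 nt of EMX2OS are opposite the lncRNA gene ENSG00000258114, which was also at 0.

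OTX2 (ENSG00000165588) lies on the minus strand of chromosome 14 from 57266623 to 57283411, and OTX2-AS1 (ENSG00000248550) on the plus strand from 57279901 to 57618895. Listed counts were 0 pairs for OTX2, with a limit of 3 counts, and 10 pairs for OTX2-AS1 (exact Poisson interval 4.80 to 18.4). All 10 pairs of the locus were thus listed for the antisense gene (exact binomial interval 69.2% to 100%), at 2.85 pairs per kb of exons. With the strand settings above, these 10 pairs come from the minus strand, that of OTX2. They were listed on exons of OTX2-AS1, which share no nucleotides with exons of OTX2. The 100% is thus a share of the minus strand and need not be a share of OTX2 RNA. The layout resembles that of PITX1: the starts are 3510 nt apart, the genes overlap over 3511 nt, the antisense gene extends over 339 kb, and 0 exonic nt are shared, with 2703 nt between the nearest exons. Unlike PITX1-AS1, it shares exonic nucleotides with no protein-coding gene. The 145 nt opposite it belong to ENSG00000286257, a newer lncRNA gene not analysed here. PITX1-AS1, with a span of 324.9 kb, had 3298 pairs beside these 10.

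Exons of another gene lay opposite 7 of the 9 genes, beside 36.7% of protein-coding and 35.1% of lncRNA genes. The 9 genes were chosen as loci with antisense genes, so this share was partly set by the choice. DLX6 and DLX6-AS1 count through each other, as do EMX2 and EMX2OS. Only DLX5 and OTX2 had none. With older transcripts of listed genes alone, 3 of 9 remained, EMX2, EMX2OS and PITX1-AS1. The exons opposite DLX6, OTX2-AS1 and PITX1 come from newer models, and so does the exon of DLX6-AS1 that is opposite DLX6. The shares over all genes above use all transcripts and were not computed for older ones, so this 3 of 9 has no matching background. The 293 nt opposite PITX1 belong to ENSG00000277619, which was not analysed here. PITX1-AS1 kept 3280 nt opposite MACROH2A1 in older transcripts, 71.2% of its exonic length there. Most of this is the exon of 3171 nt, which is opposite a transcript that codes for no protein, and 91 nt are opposite coding sequence.

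For comparison, 1733 pairs of a protein-coding gene and an antisense gene named after it were taken from the count table. Counts were unequal in 1598 of them, and the antisense gene was the higher in 50.1% of these. It was the higher in 3 of the 4 pairs here, those of DLX6, OTX2 and PITX1. These are listed genes: with the strand settings above, the pairs listed for an antisense gene come from the strand of its named partner. That strand would be the source of more pairs in the same 3 of 4 and the same 50.1%. Where no exons are shared, as at OTX2 and PITX1, those pairs need not come from the partner itself. The exact binomial interval of the antisense share lay wholly above 50% in 36.4% of all pairs and wholly below in 32.0%. Here it lay above 50% for OTX2 and PITX1 and below for none of the 4, and these too are directions of listed genes, with the same limit. Exonic nucleotides were shared in 61.1% of all pairs, as at DLX6 and EMX2. The sums of the DLX6, EMX2 and OTX2 pairs, 11 or lower, were of a size found in 28.9% of all pairs, and the median sum was 50. PITX1-AS1 lay at the upper end, since in 33 pairs, its own included, the antisense gene had a count at least as high, and 19 pairs, its own included, had both a sum and an antisense share at least as high.

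These 1733 antisense genes fell into 4 groups by the exons on the other strand. In 1058 the exons of the named partner were shared, and the median count of the antisense gene was 25. In 44 pairs only another protein-coding gene shared exons, with a median of 52 counts, and in 39 only a gene that is not protein-coding, with a median of 1. The other 592 shared no exons and had a median of 3. PITX1-AS1 belonged to the group of 44 and had its highest count, rank 1. DLX6-AS1, with 9, and EMX2OS, with 0, lay below the median of the group of 1058, and OTX2-AS1, with 10, ranked 11 of 39. The exons that put DLX6-AS1 and OTX2-AS1 in these groups come from newer models, and in older transcripts both share 0 nt. Per kb of exons the medians of the 4 groups were 11.6, 18.2, 0.385 and 1.67 pairs. These groups share a library, differ in exonic length, and were formed after the counts were seen, so they are a description without a test.

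**Figure D4:**
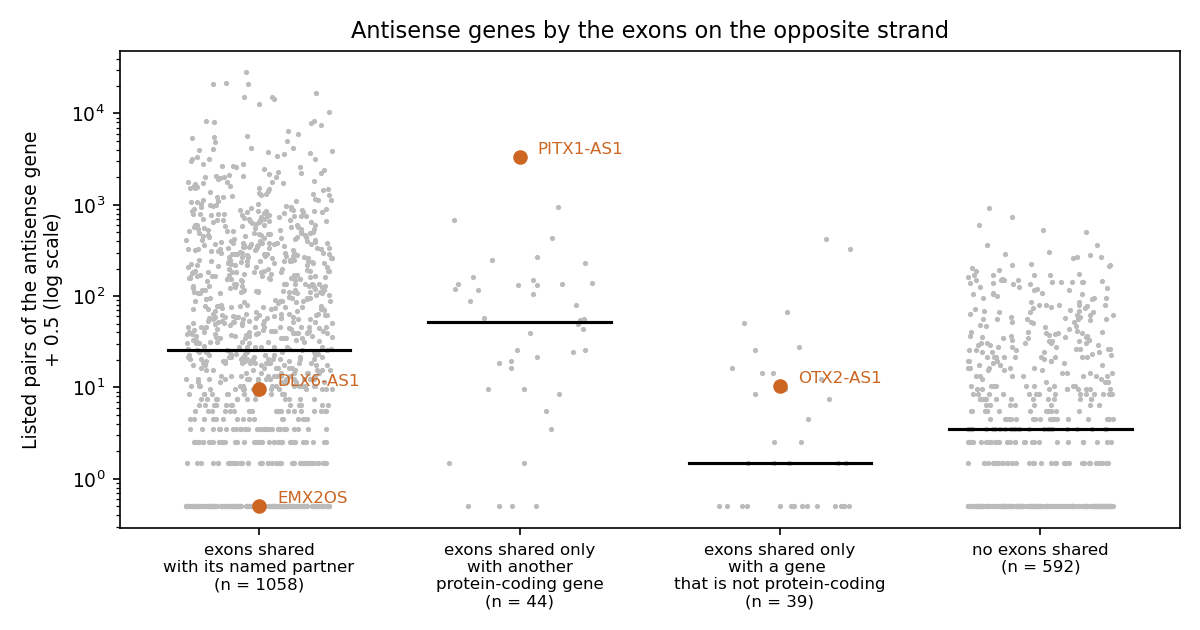
Listed pairs of 1733 antisense genes plus 0.5, on a log scale, by the exons on the opposite strand. Grey points are genes, black lines are medians, and orange points are the 4 antisense genes of the homeobox loci. PITX1-AS1, at 3298, is the highest of the 44 genes that share exons only with another protein-coding gene.

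Within 100 kb of the 4 loci, 31 other genes were listed, of which 10 had at least 10 counts and 14 had a count of 0. Over all genes listed, 24.3% had at least 10 counts, and 35505 of 64081 had a count of 0. At the PITX1 locus 6 of 15 had at least 10 counts, at OTX2 3 of 10, at EMX2 1 of 3 and at the DLX genes 0 of 3. MACROH2A1 was the highest of all 31. The next at the PITX1 locus were MTND4P12 with 64 pairs (exact Poisson interval 49.3 to 81.7) and MTND3P25 with 42 pairs (30.3 to 56.8). Both are nuclear copies of mitochondrial genes, whose reads may not be told apart from those of the mitochondrial originals. PCBD2, a cofactor gene, had 34 pairs (23.6 to 47.5) and CATSPER3, a sperm calcium channel gene, 23 pairs (14.6 to 34.5). MTND4LP30, another such copy, had 10.

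Around OTX2, the lncRNA genes ENSG00000259133 and LINC03059 had 30 pairs (exact Poisson interval 20.2 to 42.8) and 28 pairs (18.6 to 40.5), the latter within the span of OTX2-AS1 on the other strand but on none of its exons. EXOC5, which encodes a subunit of the exocyst, had 22 pairs (13.8 to 33.3). Near EMX2, PDZD8, which encodes a protein of the endoplasmic reticulum, had 41 pairs (29.4 to 55.6), and near the DLX genes the highest neighbour was RN7SL252P with 8. Of the 10 neighbours with at least 10 counts, 8 are annotated on the minus strand and 2 on the plus strand. MTND4P12, MTND3P25 and MTND4LP30, all among the 8, lie side by side. The strands of neighbours with fewer counts were not set beside these, so no strand bias can be read from them. None of the 10 other than MACROH2A1 shares exons with a gene of the homeobox loci.

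**Figure D5:**
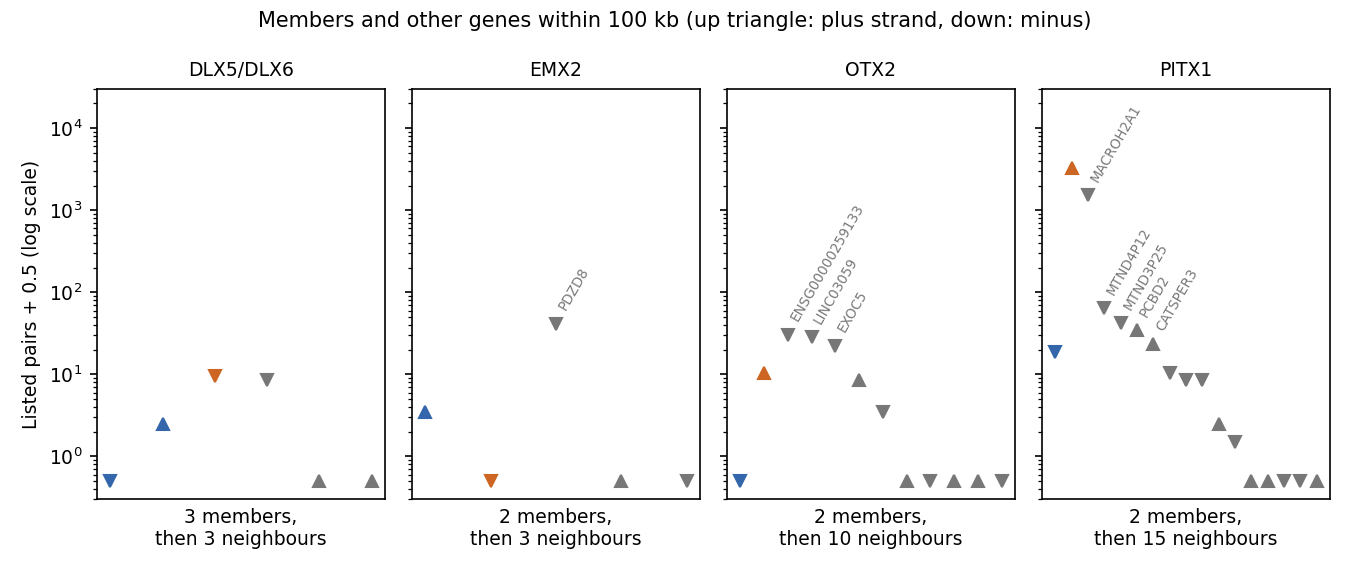
Listed pairs plus 0.5, on a log scale, of the homeobox genes (blue), antisense genes (orange) and other genes within 100 kb (grey, sorted by count) at each locus. Triangles point up for genes on the plus strand and down for the minus strand. PITX1-AS1, at 3298, and MACROH2A1, at 1529, stand above the genes of all 4 loci.

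Of 10 genes of the DLX, EMX, OTX and PITX families or named after them, 2 had at least 10 counts, beside 24.3% of all genes and, since 9 of the 10 are protein-coding, 44.2% of protein-coding genes. CRX, a relative of OTX2 known from photoreceptors, had 132 pairs (exact Poisson interval 110 to 157), and DLX1, which acts in inhibitory neurons, had 19 pairs (11.4 to 29.7). DLX2 followed with 7. The annotation has no exon opposite CRX, DLX1 or DLX2. PITX3, a relative of PITX1 that acts in the lens and in dopaminergic neurons, was at 0. Among 16 genes of limb, craniofacial and forebrain development, 1 had at least 10 counts and 8 were at 0, beside 44.2% and 26.3% of protein-coding genes. That gene was PAX6, a regulator of eye and forebrain development, with 34 pairs (23.6 to 47.5), and 5432 of its exonic nt are opposite exons of ELP4, PAUPAR and ENSG00000285283. With the strand settings above, these 34 pairs come from the strand of those genes, and their part in the count was not tested. SIX3, which acts in the forebrain and the eye, had 3. POMC, a pituitary gene that PITX1 is known to activate, and TBX4, which acts with it in the hindlimb, had 0 and 2. Under the same strand settings, every count of these lists is of pairs from the strand opposite the gene. None of them measures the RNA of the named gene.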

How the data were processed

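Poly(A)+ RNA of LNCaP cells was sequenced in 2 biological replicates. According to the submitters' processing notes and the methods, Trimmomatic 0.30 trimmed the reads, TopHat2 2.0.12 with Bowtie2 2.2.3 placed them on hg19, and SAMtools and HTSeq 0.6.1p1 gave the counts. The authors deposited raw counts of read pairs per gene, both replicates in 1 column, with no normalization. The planned comparison of the replicates was therefore not made. The summary lines of htseq-count (no feature, 93.5% of the uniquely placed pairs; ambiguous, 0.141%) were left out of library sizes.

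The 9 genes and all lists were chosen with earlier results of these data known. Identifiers were matched without version to GENCODE 44 on GRCh37, for 55538 of 57820 Ensembl identifiers. That release is newer than the authors' annotation, which is not used here. Older transcripts are those numbered up to 610260, the highest first transcript of the 200 newest listed genes. Exonic length is the union of all exons. Antisense pairs are genes named with AS and a number, or OS, and a protein-coding partner on the other strand. CPM uses the 9495309 pairs on genes. Intervals are exact Poisson and exact binomial (Clopper-Pearson), and the limit for a count of 0 is 3 counts. No molecular identifiers were used, so counted pairs need not be separate molecules. Functions were tested on simulated data. Named genes were the 9 genes, genes that share exons with them, neighbours within 100 kb with at least 10 counts (up to 5 a locus), members of the lists with at least 10 counts or among the 3 highest, and the checks of strand and cell line. HPRT1, PTPRC, TBX4, POMC, PITX3, MTND4LP30 and RN7SL252P were named after their values were seen. Values of some genes under this rule are not reported here. Python 3.11.15, scipy 1.17.1, numpy 2.4.6 and matplotlib 3.10.9 were used.

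Alternatives were the length that divides a count, the library size, the minimum count, the shared nucleotides that count as sharing, the window for neighbours, the naming of pairs and, added after the data were seen, older transcripts and protein-coding transcripts only.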

Additional observations from a re-analysis of the deposited data

How the results depend on the processing

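Of 58 alternative values for 24 results, 31 moved by less than the interval or the 1.5-fold band and 27 moved by more; none turned a called share to the other strand. The share of PITX1-AS1 with PITX1 was 98.96% per kb of union exonic length, just outside its interval, and that of DLX6-AS1 with DLX6 fell to 45.7% per kb of exons and 40.3% per kb of the longest transcript, below 50%. The CPM of the genes follows the library size. Without the 3 highest genes it was 675 for PITX1-AS1, 3.68 for PITX1, 2.05 for OTX2-AS1 and 1.84 for DLX6-AS1, and over all uniquely placed pairs 22.2, 0.121, 0.0673 and 0.0605, with 0.0202 for EMX2 and 0.0135 for DLX6, against 347, 1.90, 1.05, 0.948, 0.316 and 0.211 over pairs on genes. A minimum of 20 counts left 1 of the 9 genes, and the share over all genes was not computed at 20. A minimum of 1 left 6, beside 28576 of all 64081 genes. Relatives with at least 4 counts numbered 4 of 10, beside 11073 of 19404 protein-coding genes. The antisense gene was higher in 54.2% of all named pairs with a sum of at least 10 counts and in 60.6% per kb. With older transcripts, 3 of the 9 genes had an exon of another gene opposite, and with protein-coding transcripts of MACROH2A1, 266 nt were shared with PITX1-AS1. Neighbours with at least 10 counts numbered 1 at DLX5 and DLX6 within 250 kb, 0 and 2 at EMX2 within 50 kb and 250 kb, and 3 and 12 at PITX1. A wider window holds more genes. The numbers of listed genes in these windows are not given, so these counts cannot be set beside the 24.3% of all genes. No paired analysis was possible because both replicates are in 1 column, and for the same reason no replicate could be left out. At the DLX, EMX2 and OTX2 loci 11 or fewer listed pairs set each share, and the intervals are wide.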
